A study of Gallus gallus with 6 samples.

Results

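Protein phosphatases remove phosphate groups that kinases place on tyrosine, serine or threonine. In B cells, tyrosine phosphatases set the threshold of antigen receptor signalling, dual-specificity phosphatases switch off MAP kinases, and the serine/threonine enzymes of the PPP family act as complexes of a few catalytic subunits with many regulatory subunits. The genes described here are those whose array probe carries an accession of a RefSeq chicken symbol that starts with PTPN or PTPR (tyrosine phosphatases without and with a transmembrane receptor part), DUSP (dual-specificity), PPM1 (metal-dependent serine/threonine) or PPP and a digit. A pair of symbols under these prefixes was left out by the rule. This gave 40 genes with 101 probes, out of 4932 named genes on the array, and the brightest probe of a gene stands for it. The reference table holds 124 symbols under the rule, and those without a matched probe, such as PTPN7, DUSP5, PPP1CA and PPP3CA, are not analysed here.

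The cells were DT40, a chicken B cell line from a bursal lymphoma. One group was untreated wild-type DT40 and the other untreated IRF4-deficient DT40, a knockout of the transcription factor IRF4, each with 3 separate cultures and 1 one-colour array per culture. The sources used here do not say how many knockout clones there were, and p-values measure the spread between these cultures only. Values are log2 signals relative to the 75th percentile of each array, 0 being that percentile. Changes are knockout minus wild type, tested with limma over 19818 features and called at a Benjamini-Hochberg adjusted p under 0.05. Signals of different probes depend on the probe, so levels were not read as differences in transcript amount between genes. Signal was used only to choose probes and to describe where changes lay.

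IRF4, the targeted gene, stood at 3.16, 2.96 and 2.92 in wild type and at -1.12, -1.36 and -1.12 in the knockout, an 18.6-fold lower signal (log2 fold change -4.21 ± 0.10, SE; limma adjusted p = 5.0e-07). These values are from the brighter of its 2 probes, which was still above background on all 3 knockout arrays. Whether this probe lies in the disrupted part of the gene is not known here. An exact permutation test, two-sided, gave p = 0.1 for IRF4, the smallest p that 3 against 3 arrays allow. On the 6 arrays 62.4% to 68.2% of the spots for genes exceeded background. All 12 B cell markers with a probe were above background on every array. Of these, 7 were called higher and 2 lower, against 40.4% and 28.8% of all features. The log2 fold change was 3.21 ± 0.06 for CD72, 1.46 ± 0.05 for TNFRSF13B, -0.95 ± 0.06 for LYN and -0.59 ± 0.04 for TNFRSF13C. Their summed log2 signal was 7.20 to 7.34 in wild type and 7.56 to 7.63 in the knockout. Of the markers of other cells, 3 of 6 T cell, 3 of 6 myeloid, 1 of 4 fibroblast and 0 of 2 erythroid and thrombocyte markers were above background on all wild-type arrays, and 3, 2, 2 and 0 on all knockout arrays. LYZ is missing from the myeloid knockout count because its spot on replicate 1 was an outlier. It was above background on the other knockout arrays. The summed log2 signal of the fibroblast markers was -1.64 to -1.51 in wild type and 2.50 to 2.67 in the knockout, and 1 gene, COL1A2, carried nearly all of it (log2 fold change 4.24 ± 0.06). COL3A1 changed by 0.72 ± 0.15 at low signal, with DCN and PDGFRA not above background on any wild-type array. The myeloid sum was -1.35 to -1.14 in wild type and -3.56 to -2.49 in the knockout, where the lowest value is that of replicate 1, summed without its outlier spot of LYZ, the gene that carried most of the sum. LYZ fell by 1.69 on the log2 scale over the other knockout arrays, with CD14, CSF3R and MARCO at background throughout. Of the other detected myeloid markers, CEBPB was called lower (log2 fold change -1.36 ± 0.07) and CEBPA was not called (0.11 ± 0.33). The T cell sum of 6.04 to 6.09 and 6.08 to 6.34 was carried by CD3D, which was not called. CD3E fell 10.8-fold and CD8A 2.19-fold, while CD4 was at background. The part of these markers in the results below was not tested. In these bulk samples fewer cells with a transcript and less of it per cell cannot be told apart.

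Of the 40 phosphatase genes, 33 passed the background filter, which asks for detection on every array of either group, and entered the test. Of these, 13 were higher in the knockout, 11 were lower and 9 were not called, so 72.7% were called, against 69.2% of all features and 69.7% of named genes. The share called higher was 39.4%, against 40.4% of all features and 38.3% of named genes, and the share called lower was 33.3%, against 28.8% and 31.5%. PTPRJ is counted among those higher and entered the test through the knockout arrays alone. The shares therefore lay close to the background, and the median log2 fold change was -0.0019 against 0.09 over all features. With each array centred on its median instead, 11 phosphatase genes were higher and 15 lower, so the share of rises among the called genes was 42.3% in place of 54.2%. Over all features that share was 48.1% in place of 58.4%, and the median of all features moved from 0.09 to -0.0022. In 25 of the 33 genes (75.8%) the 3 knockout values did not overlap the 3 wild-type values, against 74.8% of all features and 76.1% of named genes. All 24 called genes had the same direction on both slides that carried wild type and knockout side by side. The arrays of these slides also gave the calls, so this adds no separate support. The share over all called features was not counted.

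**Figure D1:**
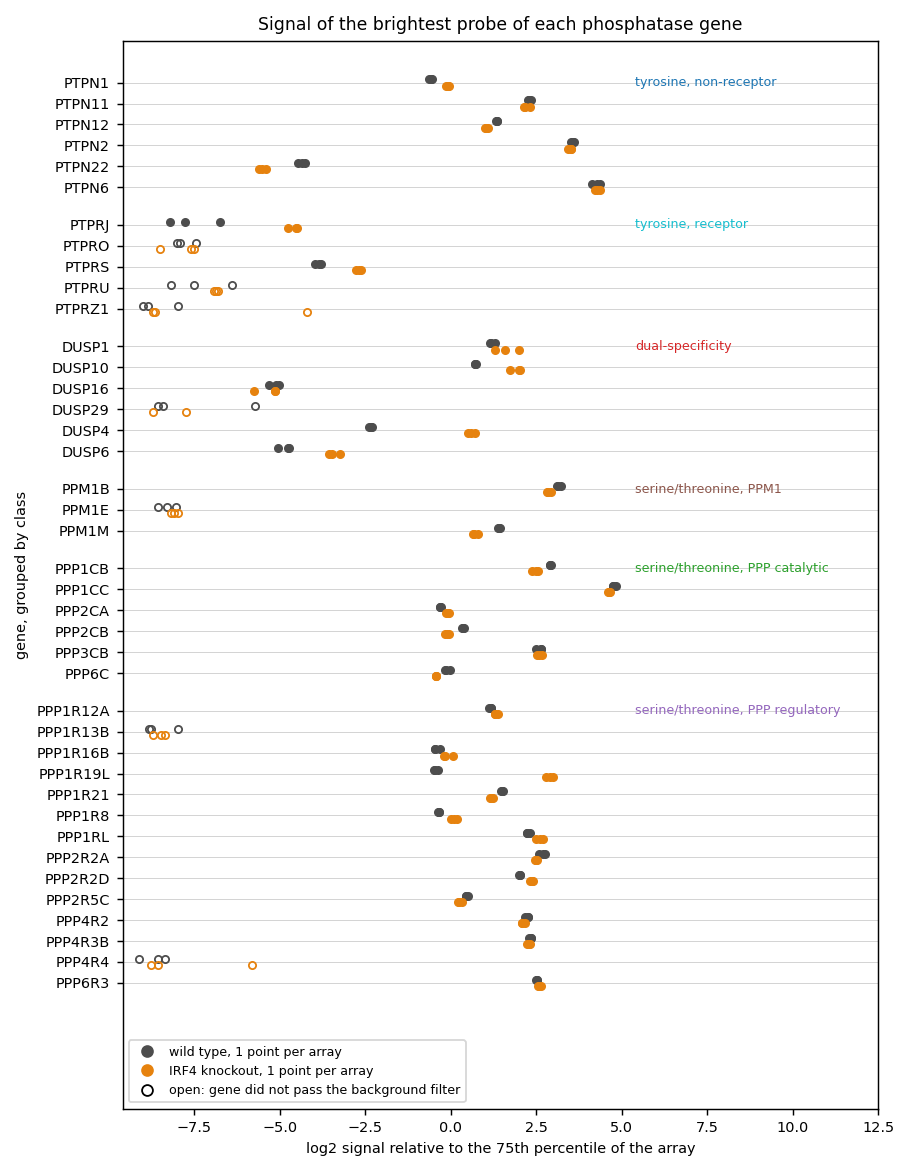
Log2 signal of the brightest probe of each of 40 phosphatase genes, relative to the 75th percentile of the array, with 1 point for each of 3 wild-type and 3 knockout arrays (the outlier spot of DUSP29 is not drawn). DUSP4, DUSP6, DUSP10, PTPRJ, PTPRS and PPP1R19L lie clearly to the right in the knockout and PTPN22 to the left, while the open points of 7 genes mark those that did not pass the background filter.

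A change of at least 2-fold was called for 7 of the 33 tested phosphatase genes. It was upward in 6 of 33 (against 8.15% of all features and 6.28% of named genes) and downward in 1 of 33 (against 6.80% and 7.01%). These were 3 of 5 tested dual-specificity genes, 3 of 8 tyrosine phosphatase genes and 1 of 20 serine/threonine phosphatase genes. PTPRJ, counted among the 6 and among the tyrosine genes, entered the test through the knockout arrays alone, so its direction was set by the filter. The median log2 fold change was 1.21 in the dual-specificity class, -0.03 in the tyrosine class and -0.08 in the serine/threonine class. These medians are descriptions of small classes, and the differences between classes were not tested.

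The dual-specificity genes with a probe were 5 MAP kinase phosphatases, which remove phosphate from both the threonine and the tyrosine of the MAP kinase activation loop, and DUSP29. DUSP4, a nuclear phosphatase induced by MAP kinase signalling, read -2.41, -2.30 and -2.34 in wild type and 0.58, 0.71 and 0.50 in the knockout (probe A_87_P037836). Every knockout array lay far above every wild-type array, a 7.71-fold rise (log2 fold change 2.95 ± 0.07, limma adjusted p = 4.7e-07). Within the slides that held both groups the difference was 2.99 and 3.01.

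DUSP6, a cytoplasmic phosphatase with a strong preference for ERK, read -4.75, -4.74 and -5.06 in wild type and -3.25, -3.47 and -3.55 in the knockout. The groups did not overlap, and the rise was 2.69-fold (1.43 ± 0.12, limma adjusted p = 8.7e-05; 1.50 and 1.27 within slides). It rests on 1 of 4 probes, since none of the other 3 was above background on all arrays of a group. DUSP10, which in mammals acts mainly on JNK and p38, read 0.75, 0.70 and 0.70 in wild type and 2.03, 1.74 and 1.99 in the knockout. That is a 2.31-fold rise (1.21 ± 0.08, limma adjusted p = 3.8e-05; 1.28 and 1.05 within slides), and its other 2 probes rose by 1.39 and 1.33. DUSP10 rose although the named genes of its chromosome had a median log2 fold change of -0.39.

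The other MAP kinase phosphatases did not pass the test. DUSP1, an immediate early gene, read 1.29, 1.14 and 1.16 in wild type and 1.98, 1.28 and 1.60 in the knockout. Knockout replicate 2 lay within the wild-type range, and the difference was 0.42 ± 0.17 (limma adjusted p = 0.071; 95% interval -0.0025 to 0.85). Without that array it was 0.59 and passed (adjusted p = 0.012). Within the slides it was 0.69 and 0.14. Its other 2 probes differed by 0.27 and 0.35 and were not called either. DUSP16, which acts on JNK in mammals, gave a dim signal of -5.04, -5.12 and -5.33 in wild type and -5.13, -5.14 and -5.76 in the knockout. Its groups overlapped (-0.18 ± 0.19, limma adjusted p = 0.42; 95% interval -0.63 to 0.28). DUSP29 was above background on 1 wild-type array, at -5.73 against -8.56 and -8.41 on the others, and on no knockout array, where 1 spot was flagged as an outlier.

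**Figure D2:**
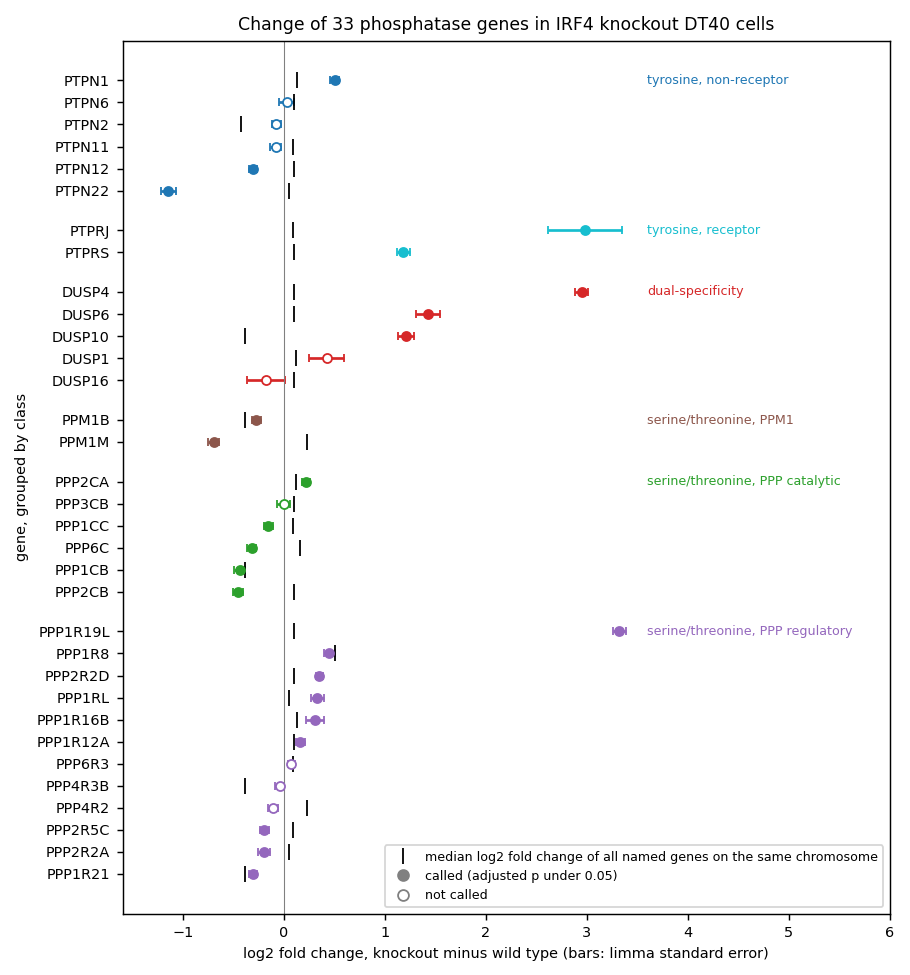
Log2 fold change, knockout minus wild type, of the 33 tested phosphatase genes by class, with limma standard errors as bars (n = 3 arrays a group). Filled points passed an adjusted p under 0.05, and black ticks give the median log2 fold change of all named genes on the same chromosome. DUSP4 (2.95) and PPP1R19L (3.32) lie farthest from 0 among genes measured in both groups, PTPRJ is drawn at a fitted value that is no measure of size because wild type was at background, and the PPP catalytic subunits lie between -0.46 and 0.22.

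Among the receptor-type tyrosine phosphatases, both tested genes were called higher, where 40.4% of all features were. PTPRJ was tested only because it was detected in the knockout, so its direction was set by the filter. PTPRJ, known as CD148, a receptor phosphatase that acts on Src-family kinases in leukocytes, was not above background in wild type (-6.74, -7.77 and -8.23) and was detected on all 3 knockout arrays (-4.77, -4.49 and -4.52). The knockout signal was higher by at least 3.87-fold (limma adjusted p = 0.00055), where the bound sets the knockout mean against the lowest signal called above background on each wild-type array or the probe's own signal, whichever was higher. As it passed the filter through the knockout arrays alone, the p adds no support to the detection counts. The bound rests on the background correction, since the fitted log2 fold change was 1.20 under normexp, which is below the bound. Its second probe was not above background on any of the 6 arrays. PTPRS, a receptor for proteoglycans best known from neurons, read -3.84, -3.99 and -3.80 in wild type and -2.68, -2.77 and -2.64 in the knockout. All 3 knockout arrays were higher, a 2.27-fold rise (1.18 ± 0.06, limma adjusted p = 1.6e-05; 1.16 and 1.21 within slides). All 6 probes of PTPRS were called higher, by 1.08 to 1.44.

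The remaining receptor-type genes were at background. PTPRO was not above background on any array. PTPRU was above background on 1 wild-type array, at -6.40, and PTPRZ1 on 1 knockout array, at -4.20 against -8.64 and -8.71 on the other knockout arrays. These single readings gave no test.

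The non-receptor tyrosine phosphatases include the negative regulators best known in lymphocytes. PTPN22, which in mammalian lymphocytes restrains Src- and Syk-family kinases, read -4.47, -4.27 and -4.36 in wild type and -5.41, -5.51 and -5.61 in the knockout (probe A_87_P164798, its only probe). The groups did not overlap, and the fall was 2.21-fold (-1.14 ± 0.07, limma adjusted p = 3.1e-05; -0.94 and -1.24 within slides). Under normexp background correction the log2 fold change was -0.61, still called. PTPN1, an endoplasmic reticulum phosphatase that acts on receptor tyrosine kinases and JAK kinases, rose from -0.59, -0.55 and -0.63 to -0.05, -0.14 and -0.08. That is a 1.41-fold rise without overlap (0.50 ± 0.04, limma adjusted p = 1.0e-04). PTPN12, a PEST-domain phosphatase of adhesion signalling, fell from 1.36, 1.33 and 1.35 to 1.09, 0.99 and 1.02 (1.24-fold; -0.31 ± 0.04, limma adjusted p = 0.00075).

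PTPN6, which encodes SHP-1, the SH2-domain phosphatase recruited by inhibitory receptors of B cells, did not pass the test. It read 4.36, 4.27 and 4.14 in wild type and 4.37, 4.26 and 4.21 in the knockout, and the groups overlapped throughout. The difference was 0.03 ± 0.07 (limma adjusted p = 0.77), with a 95% interval of -0.15 to 0.20 and none of its 3 probes called. PTPN11, which encodes the related SHP-2, read 2.34, 2.25 and 2.29 against 2.15, 2.30 and 2.17 (-0.08 ± 0.06, limma adjusted p = 0.23; 95% interval -0.22 to 0.05). Its probes disagreed, since 1 of 3 was called higher by 0.23 while the other 2 were not called. PTPN11 was called lower under 2 of 17 alternatives, with a log2 fold change down to -0.18. PTPN2, a phosphatase of JAK and STAT proteins, read 3.56, 3.61 and 3.51 against 3.42, 3.52 and 3.52 with its brightest probe (-0.08 ± 0.05, limma adjusted p = 0.19). Of its other probes 2 were called lower by 0.34 and 0.33, and the mean of its probes passed the test (-0.20, adjusted p = 0.0026). The named genes of its chromosome, which also carries IRF4, had a median of -0.43.

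**Figure D3:**
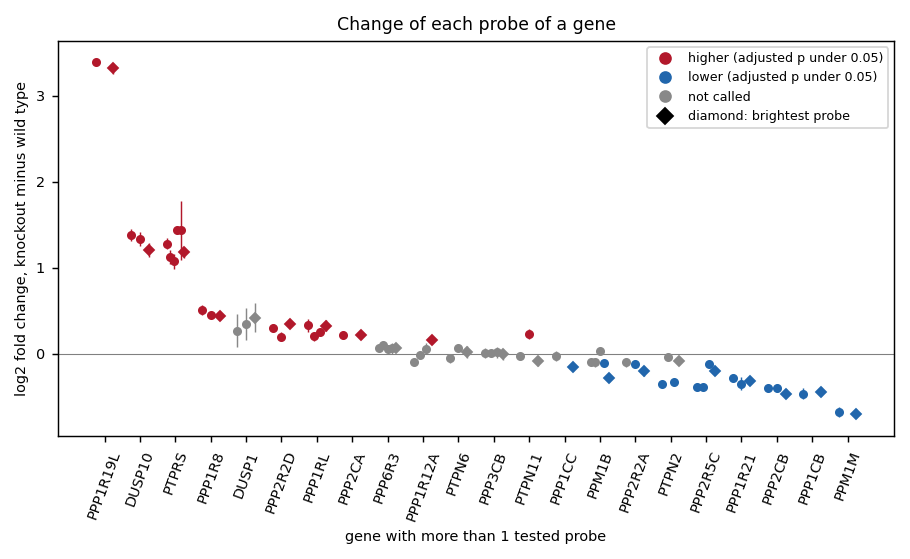
Log2 fold change of each tested probe, with limma standard errors, for the 22 phosphatase genes with more than 1 tested probe (n = 3 arrays a group). Diamonds mark the brightest probe used elsewhere, red and blue mark calls in each direction, and no gene has probes called in both directions.

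Of the 84 probes of these genes that passed the background filter, those of 12 of the 22 genes with several probes were all called in 1 direction. All probes had the same sign in 17 of the 22. These counts were not made for the other genes with several probes, and 69.2% of all features were called. No gene had probes called in opposite directions. PPP1R12A, the myosin-targeting subunit of PP1, was called by its brightest probe (0.16 ± 0.04, limma adjusted p = 0.014) and by none of its other 3 probes, which differed by -0.09, -0.01 and 0.06. In wild type alone the probe at -0.09 was the brighter one (1.26 against 1.16). The knockout arrays thus decided which probe was used. The mean of the PPP1R12A probes was 0.030 (adjusted p = 0.44), and the call was also lost under 5 other alternatives (adjusted p from 0.053 to 0.26), among them leaving out wild type replicate 2 (0.055).

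The catalytic subunits of the PPP family changed by small amounts, with 4 of 6 called lower and 1 higher, where 28.8% and 40.4% of all features were. PPP1CB, a catalytic subunit of PP1, fell from 2.89, 2.91 and 2.92 to 2.37, 2.48 and 2.55 (1.35-fold; -0.44 ± 0.05, limma adjusted p = 0.00057). Its chromosome had a median of -0.39, and with chromosome medians subtracted PPP1CB was at -0.05 and lost the call (adjusted p = 0.50). PPP1CC, another PP1 catalytic subunit, fell from 4.83, 4.75 and 4.74 to 4.65, 4.59 and 4.61 (1.11-fold; -0.16 ± 0.04, limma adjusted p = 0.016). Its second probe was not called (-0.02), and the call was lost when both probes were averaged (-0.089, adjusted p = 0.14), with slide as a fixed block (0.11) and without the filter (0.053).

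Genes of the alternative PP2A catalytic subunits moved in opposite directions. PPP2CA rose from -0.31, -0.28 and -0.33 to -0.13, -0.05 and -0.09 (1.16-fold; 0.22 ± 0.04, limma adjusted p = 0.0030), with both probes called. PPP2CB fell from 0.32, 0.36 and 0.38 to -0.04, -0.11 and -0.18 (1.38-fold; -0.46 ± 0.05, limma adjusted p = 0.00027), with all 3 probes called. Neither pair of groups overlapped, as in 74.8% of all features. Both directions held within each slide that held both groups (0.18 and 0.23 for PPP2CA, -0.36 and -0.47 for PPP2CB), but the arrays of these slides also gave the calls. With slide as a fixed block PPP2CA missed the threshold (0.21, adjusted p = 0.074). PPP6C, the catalytic subunit of PP6, fell from -0.04, -0.13 and -0.17 to -0.44, -0.42 and -0.44 (-0.32 ± 0.05, limma adjusted p = 0.0011). PPP3CB, a catalytic subunit of the calcium-dependent phosphatase calcineurin, read 2.63, 2.65 and 2.50 against 2.68, 2.58 and 2.51. Its groups overlapped, none of its 4 probes was called, and the 95% interval of the difference was -0.16 to 0.15 (limma adjusted p = 0.98).

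Of 12 tested regulatory subunits and inhibitors of the PPP family, 6 rose and 3 fell, against 40.4% and 28.8% of all features. PPP1R19L, for which the reference table lists the synonym PPP1R9B, in mammals the name of the PP1-binding scaffold spinophilin, showed the farthest change among all the phosphatase genes measured in both groups. It read -0.49, -0.38 and -0.45 in wild type and 2.77, 2.89 and 2.98 in the knockout (probe A_87_P037967). The rise was 3.32 ± 0.06 on the log2 scale (limma adjusted p = 3.3e-07; 3.26 and 3.27 within slides), and its second probe rose by 3.40. No other regulatory subunit changed by as much as 2-fold. PPP1R8, a nuclear inhibitor of PP1, rose 1.36-fold (0.45 ± 0.06), and its chromosome's genes had a median of 0.51. With that median subtracted it was at -0.08 (adjusted p = 0.20).

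The subunits that direct PP2A to its substrates also moved both ways. PPP2R2D rose 1.27-fold (0.35 ± 0.04, limma adjusted p = 0.00024), whereas PPP2R2A, of the same B55 family, fell 1.15-fold (-0.20 ± 0.06, limma adjusted p = 0.023). The other probes of PPP2R2A changed by less (-0.11, called lower, and -0.10, not called). Those of PPP2R2D were called higher, by 0.31 and 0.20. PPP2R5C, of the B56 family, fell 1.15-fold with its brightest probe (-0.20 ± 0.04, limma adjusted p = 0.0072), and its other 3 probes fell by 0.38, 0.38 and 0.12. The fall of PPP2R2A missed the threshold without wild type replicate 1 or 2 or knockout replicate 2 or 3 (adjusted p from 0.058 to 0.069), and without the filter (0.064). That of PPP2R5C lost its call in the fit with a fixed slide term (adjusted p = 0.089). PPP1RL, listed with the synonym PPP1R3E, a name of a glycogen-targeting PP1 subunit in mammals, rose by 0.33 ± 0.06, with all 4 probes called, and lost its call in the fit with a fixed slide term (adjusted p = 0.082). PPP1R16B, a membrane-bound PP1 subunit of endothelial cells, rose by 0.30 ± 0.09 (limma adjusted p = 0.022), which missed the threshold without wild type replicate 2 (adjusted p = 0.070) or 3 (0.067), without the filter (0.058), with median centring (0.067) and with chromosome medians subtracted (0.084). PPP1R21, an endosomal protein, fell by 0.31 with an SE of 0.04, and with its chromosome's median subtracted it turned to 0.080 (adjusted p = 0.064). The PP4 and PP6 partners PPP4R2 (-0.11 ± 0.05), PPP4R3B (-0.05 ± 0.04) and PPP6R3 (0.07 ± 0.04) were not called, although the PPP6R3 groups did not overlap. PPP4R2 was called lower under 2 of 17 alternatives, with a log2 fold change down to -0.31. PPP1R13B was not above background on any array, and PPP4R4 was so on 1 knockout array, at -5.81.

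Both tested members of the metal-dependent PPM1 family were called lower, where 28.8% of all features were. PPM1M fell from 1.37, 1.40 and 1.45 to 0.80, 0.68 and 0.64, with both probes called (1.62-fold; -0.70 ± 0.05, limma adjusted p = 7.2e-05). Its chromosome had a median of 0.23. PPM1B, a PP2C enzyme that acts on stress and NF-kB signalling kinases, fell from 3.21, 3.10 and 3.12 to 2.93, 2.86 and 2.83 (-0.27 ± 0.05, limma adjusted p = 0.0028). Only 2 of its 5 probes were called lower, and with its chromosome's median of -0.39 subtracted its value turned to 0.12 (adjusted p = 0.035). PPM1E was not above background on any array.

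The 33 tested genes lie on 16 chromosomes of the GRCg7b assembly, on 3 of which the median log2 fold change of all named genes lay at least 0.25 from that of the 3829 placed genes (0.05). These 3 carry 7 of the phosphatase genes: DUSP10, PPM1B, PPP1CB, PPP1R21 and PPP4R3B on the chromosome with a median of -0.39, PTPN2 on that of -0.43 and PPP1R8 on that of 0.51. PPM1B, PPP1CB, PPP1R21 and PPP1R8 lay within 0.12 of their chromosome's median. The part of these shifts in the results was not tested. On the other chromosomes 11 of 26 tested genes were higher and 8 lower, shares like the 40.4% and 28.8% of all features. Of the 7 genes with a change of at least 2-fold, 6 lie on chromosomes whose medians were between 0.05 and 0.10, and the exception is DUSP10.

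**Figure D4:**
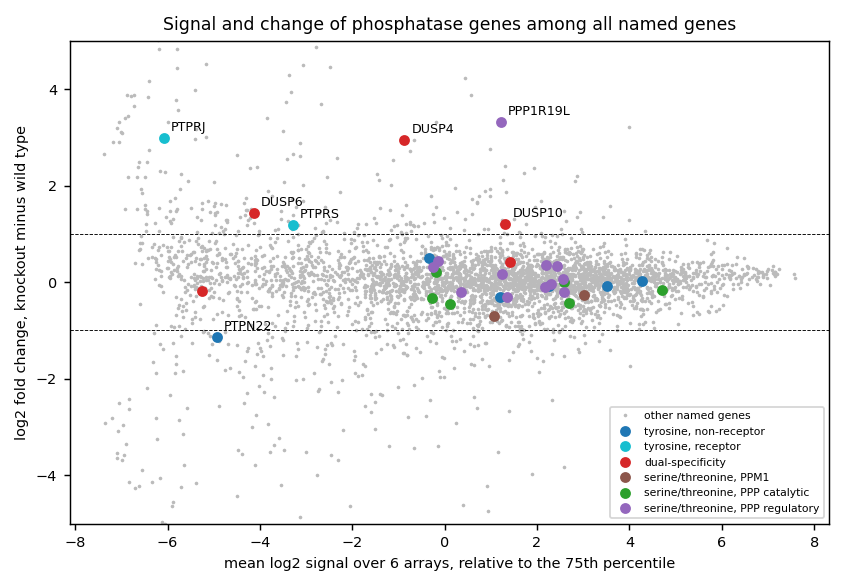
Mean log2 signal over 6 arrays against the log2 fold change for the 33 tested phosphatase genes (coloured by class) and the other named genes (grey), with dashed lines at 2-fold. Named genes beyond 5 on the log2 scale (34) are not drawn. PTPRJ, PTPN22, DUSP6, PTPRS and DUSP4 changed at low signal, where many named genes did, and DUSP10 and PPP1R19L at signals where few did. The mean includes the knockout arrays, and the wild-type means of DUSP10 and PPP1R19L were lower, at 0.71 and -0.44.

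Changes of at least 2-fold were more frequent among dim probes in general. Of 1918 named genes with a mean signal at or below the median (0.90), 22.6% were called at 2-fold or more, against 4.02% of the 1917 above it. Among the phosphatase genes the counts were 5 of 13 and 2 of 20. The 2 were DUSP10 and PPP1R19L, whose mean signal includes their own rise in the knockout. Their wild-type means (0.71 and -0.44) lay below 0.90. In the serine/threonine class every tested gene had a wild-type mean of -0.44 or above. The part of signal in the results was not tested.

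Genes around the phosphatases were read from lists. Of 28 listed genes of the MAP kinase cascade, the substrates of the DUSP enzymes and their activators, 10 were tested, of which 4 rose and 3 fell (median 0.02), shares like the 40.4% and 28.8% of all features. MAPK11, a p38 MAP kinase, rose from -0.08, -0.07 and -0.08 to 1.95, 1.70 and 1.78, a 3.70-fold rise (1.89 ± 0.07, limma adjusted p = 3.0e-06). BRAF (0.29 ± 0.03) and MAP2K3 (0.39 ± 0.04) rose by less, and MAPK9, a JNK kinase, fell (-0.17 ± 0.04). Of 18 listed transcripts that ERK signalling induces, 4 were tested. FOS rose 2.33-fold (1.22 ± 0.09), JUN rose 1.48-fold (0.56 ± 0.10) and SPRY2 was not called (0.27 ± 0.12, limma adjusted p = 0.095). SPRED1, an inhibitor of the Ras pathway, was above background on all 3 wild-type arrays and on no knockout array, at least 2.37-fold lower. SPRED1 entered the test through the wild-type arrays alone, so its direction was set by the filter. EGR1 and SPRY4 were not above background on any array.

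Protein phosphatases with other symbols moved both ways as well. Of 9 tested genes of this kind 3 rose and 4 fell (median -0.09), against 40.4% and 28.8% of all features. CDC25A, which activates cyclin-dependent kinases, fell 1.88-fold (-0.91 ± 0.05), EPM2A, the glycogen phosphatase laforin, 1.57-fold and CTDSPL 1.39-fold. ACP1 fell by 0.21 on the log2 scale. All 4 lie on chromosomes whose medians were -0.43 or -0.39, and the part of this in the result was not tested. EYA3, above background on no wild-type array and on all 3 knockout arrays, was at least 1.83-fold higher, on the chromosome with a median of 0.51. EYA3 is counted among the 3 that rose, but it was tested through the knockout arrays alone, so its direction was set by the filter. Of 12 tested regulators of PP1, PP2A and calcineurin with other symbols, 2 rose and 4 fell, all by less than 2-fold and against the same shares of all features. The PP2A inhibitor gene ENSA rose by 0.39 ± 0.05, and ANP32A (-0.21 ± 0.05) and TIPRL (-0.29 ± 0.05), whose products bind PP2A or its relatives, fell.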

How the data were processed

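Per the file headers, the authors read each one-colour chicken array (annotation galGal3) with Feature Extraction 10.7.1.1, and the deposited intensity values used are processed green signals, background-subtracted and not scaled between arrays. The deposited outlier and above-background flags of spots are other codes, 0 or 1. Tools named in the submitters' processing notes are limma and R 2.12.0. The authors' deposited value table holds linear intensity values of the same arrays, brought to 1 distribution by a step not given in the sources used here, and served as an alternative. Deposited spot and background median intensities served normexp (offset 50), as the files used here give no spot mean.

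Signals were taken as log2 and the 75th percentile of each array was subtracted. Spots of 1 probe were averaged without control spots (1417 an array) and outliers. The filter on dim probes asked for a signal flagged well above background on each unflagged array (2 or more) of either group. Accessions were matched without versions to RefSeq's GRCg7b table, which named 10691 of 43603 probes (24.5%). As the build differs, no coordinates are printed. Older symbols of listed genes were matched through its synonyms. Some listed genes are not reported here by name. Knockout and wild type were compared by lmFit and eBayes of limma 3.58.1 under R 4.3.3, two-sided, with group as the only term, adjusted over all features, and the fit was tested on simulated data. Alternatives were scaling, background, filter, probe, slide, replicate number, chromosome and array. The array number, 3 a group, limits the precision.

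The gene group, its classes and the lists were chosen with earlier results of these data known. Named with values for each array were genes called at 2-fold or more, those detected in 1 group only, the PPP catalytic subunits, a fixed set of tyrosine and dual-specificity genes and the 3 brightest of each class. Probes other than the brightest, and the limit of 0.25 for chromosomes, were added after seeing the data. Same-numbered cultures did not deviate together (r from -0.025 to -0.013 across features), and the main fit did not pair them. These correlations cannot show whether the design paired the cultures. The 2 arrays numbered 1 shared a slide, as did the 2 arrays numbered 2. No sequence is shown, as the reference used here holds names only.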

Additional observations from a re-analysis of the deposited data

How the results depend on the processing

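Of the 24 called phosphatase genes, 13 kept their call and direction under all 17 alternatives, among them all 7 with a change of at least 2-fold (PTPRJ under 16, as it leaves the filter on all 6 arrays). PTPRJ entered the test through the knockout arrays alone, so its kept direction adds no support. Not all 7 stayed at 2-fold or more. The smallest log2 fold change under an alternative was 0.96 for DUSP6, 0.96 for PTPRS and -0.61 for PTPN22. The counts of 13 higher and 11 lower stayed within 1.5 times under every alternative, and were 10 and 9 with slide as a fixed block, 13 and 11 with the replicate block, and 11 and 8 without the genes on shifted chromosomes, a setting chosen after seeing the data. Same-numbered cultures did not deviate together. The replicate block also called DUSP1 (0.42, adjusted p = 0.040) and lost PPP1R12A (0.16, adjusted p = 0.053). DUSP1 was called higher under 3 of the 17 alternatives and not called under 14. With chromosome medians subtracted, PPM1B turned to 0.12, PPP1R21 to 0.080, PPP4R3B to 0.34, PTPN2 to 0.35, PPP1R8 to -0.077, PPP6R3 to -0.018 and PTPN6 to -0.074, the subtraction itself moving each by its chromosome's median. PPM1B, PPP4R3B and PTPN2 were then called higher, and PPP1R8 lost its call. PPP1CB (limma adjusted p = 0.50), PPP1R21 (0.064) and PPP1R16B (0.084) lost theirs as well, and this list of changed calls is not complete. The 13 genes higher under this setting are therefore not the 13 reported. With median centring PPP6R3 was at -0.019 and PTPN6 at -0.067. PTPN6 was also below 0 under quantile normalization (-0.057), normexp (-0.027) and the authors' deposited values (-0.060). The mean of probes turned PTPN11 to 0.041 and PPP3CB to 0.010. Leaving out 1 array turned the sign of values near 0: PPP3CB lay between -0.047 and 0.038, PTPN6 between -0.035 and 0.077 and DUSP16 between -0.28 and 0.029. None of the genes whose sign turned was called as reported, except PPM1B, PPP1R21 and PPP1R8. Normexp reduced the changes of dim probes, to -0.61 for PTPN22 and to a fitted 1.20 for PTPRJ, below its bound. Dim probes limit DUSP6, DUSP16, PTPN22, PTPRJ, PTPRS and the 7 untested genes.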
